A study of Arabidopsis thaliana with 4 samples.

Results

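The zinc finger genes ZAT5, ZAT6, ZAT7, ZAT8, ZAT10, ZAT11, ZAT12, AZF1, AZF2 and AZF3 of Arabidopsis thaliana were followed in leaf RNA of submerged and reoxygenated plants. They were taken by their locus identifiers from a list of stress zinc fingers, and all 10 were found among the 31319 loci of the tables. The libraries were myc2 R3, from the mutant myc2-2 and labelled as taken 3 h after submergence, myc2 air, from the same mutant before submergence, and WT R3 and WT air, from wild-type plants at the same stages. All 4 are labelled Col-0, and for each genotype leaves of 6 plants were used, grown for 4 weeks. The protocol has plants kept dark under water for 24 h and rosettes taken 0 and 24 h into reoxygenation, which differs from the 3 h of the R3 labels. R3 and air thus also differ in a spell of darkness and in harvest time, which cannot be told apart from submergence and reoxygenation here. By its title the study asks whether jasmonate acts in reoxygenation through antioxidant synthesis, and MYC2 is a factor through which jasmonate acts on its target genes. Each group was 1 library, so no difference has a replicate check within its group, and no test was run. A fit of genotype plus condition to the 4 libraries would keep 1 residual degree of freedom, and that is the difference of responses described further on.

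C2H2 zinc finger proteins hold a zinc ion between a pair of cysteines and a pair of histidines. In plants the helix that touches DNA carries the conserved residues QALGGH. The proteins of the zinc finger genes named above have 2 such fingers. Many of this class also carry an EAR motif, a short stretch rich in leucine that recruits TOPLESS corepressors, so that the factor represses its targets. Their transcripts are known to accumulate within minutes to hours of cold, salt, wounding, high light or hydrogen peroxide. ZAT12 is needed for full expression of the cytosolic ascorbate peroxidase APX1 under oxidative stress, ZAT10 (also STZ) acts in salt, drought and light stress and is phosphorylated by the kinases MPK3 and MPK6, and AZF1 and AZF2 are repressors induced by abscisic acid and osmotic stress.

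MYC2 (AT1G32640), the gene mutated in myc2-2, was at 34.9 RPKM in myc2 R3 and 91.7 in WT R3, and at 14.2 in myc2 air and 45.9 in WT air. RPKM scales the reads of a gene to a kilobase of its length and to 1000000 mapped reads. Transcript was therefore lower in both libraries labelled myc2 but still counted. By gene span in RefSeq's TAIR10.1, AT1G32630 on the other strand shares 3241 bases with MYC2. The length that fitted the MYC2 values was shorter, at 2179 bases, so the overlap with the counted model is not known. Whether reads were counted by strand is not known here either, so the MYC2 value is uncertain. The spacing of the low values gave library depths of 22.3 to 30.5, in units of 1000000 reads, and the whole number of reads behind each value of the zinc finger genes. Intervals below are 95% exact intervals that cover counting error only. Of the tissue markers, the 5 leaf mesophyll genes summed to 7041 RPKM in myc2 R3 and 44310 in myc2 air, and to 7111 in WT R3 and 55054 in WT air. The 6 root, flower and seed markers summed to 31.3 RPKM in myc2 R3, 14.2 in myc2 air, 74.8 in WT R3 and 5.55 in WT air. Of these sums, the root gene PYK10 gave 11.4 in myc2 R3, 6.54 in myc2 air, 62.8 in WT R3 and 2.91 in WT air, and the floral gene PI 17.0 in myc2 R3, 2.08 in myc2 air, 11.3 in WT R3 and 0.609 in WT air. The floral genes AP3 and SEP3 were instead lower at R3 than in air in both genotypes. The seed gene OLEO1 was at 0 in every library and CRA1 at 0 in both R3 libraries. The 3 guard cell genes summed to 15.9 RPKM in myc2 R3, 14.8 in myc2 air, 26.0 in WT R3 and 15.6 in WT air. Of these, FAMA and KAT1 were higher and MYB60 lower at R3 in both genotypes. The part of the marker genes in the zinc finger values was not tested. In bulk leaf RNA, fewer cells of a type and less RNA per cell cannot be told apart.

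All 10 genes are annotated in RefSeq's TAIR10.1 as a single exon, and each coding sequence held 2 stretches for QALGGH. Letters of the EAR type were found as leucines at every other residue (L, any, L, any, L) in 7 of 10 proteins, all but ZAT8, ZAT10 and AZF3, and as DLN followed by any residue and L or P in 5 of 10, namely ZAT5, ZAT6, ZAT10, AZF1 and AZF2. The encoded proteins were between 162 residues (ZAT12) and 286 residues (ZAT5) long. ZAT7 and ZAT8 were the most alike pair, with 91.9% identical residues over 161 aligned positions, and they lie 2581 bases apart on the same strand of chromosome 3 with 1 annotated gene between them. ZAT6 and ZAT10 followed at 75.6%, and ZAT8 and ZAT12 at 72.8%. The coding bases of the QALGGH stretch of finger 1 are shown because they place the genes in the class and show how near ZAT7 and ZAT8 are at the level of DNA. Capitals mark bases that differ from ZAT8.
ZAT8: caagctttgggaggtcat
ZAT7: caagctttgggaggtcat
ZAT12: caagcCttAggaggtcaC
ZAT10: caagctCtCggTggtcaC
ZAT7 and ZAT8 are alike in all bases here, while ZAT12 differs from ZAT8 at 3 positions and ZAT10 at 4, with the same residues encoded. No stretch of 50 bases of any of the 10 gene spans, ZAT7 and ZAT8 included, occurs elsewhere in the genome. The coding sequences of ZAT7 and ZAT8 were nevertheless identical at 455 of 486 aligned bases (93.6%). Read length, the mismatches allowed and the handling of reads with several matches are not known here. Sharing of reads between ZAT7 and ZAT8 was therefore not tested, and their values are uncertain to that extent.

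Leaves at R3 carried far more transcript of most of these zinc finger genes than leaves in air, in both genotypes. Summed over the 10 genes, the level was 683 RPKM in myc2 R3 and 28.7 in myc2 air, and 493 in WT R3 and 26.4 in WT air. At least a 2-fold higher value, on the scale log2((RPKM + 1)/(RPKM + 1)), was found for 8 of 10 genes in myc2, where 23.5% of 17737 genes were that much higher and 11.5% lower. In WT it was found for 9 of 10, against 31.3% of 17271 genes higher and 10.1% lower. None of the 10 was below its air level in either genotype. The median log2 ratio of the 10 genes was 3.80 in myc2 and 3.39 in WT, against 0.30 and 0.57 over all genes compared. Genes whose mean over the pair of libraries was under 1 RPKM were left out. ZAT8, ZAT11 and AZF1 passed that filter through R3 alone, since they were below 1 RPKM in both air libraries. The 10 genes were also chosen with earlier results of these data known. The counts and medians are therefore descriptions, and their excess over all genes is no independent result. When each library was rescaled by its median ratio to the geometric mean of the libraries (median-ratio scaling), which brought the median of all genes to 0.03 in myc2 and 0.04 in WT, the split of all genes was 17.1% higher and 15.9% lower in myc2 and 17.3% higher and 17.1% lower in WT, and 8 of 10 zinc finger genes were still higher in each genotype.

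**Figure D1:**
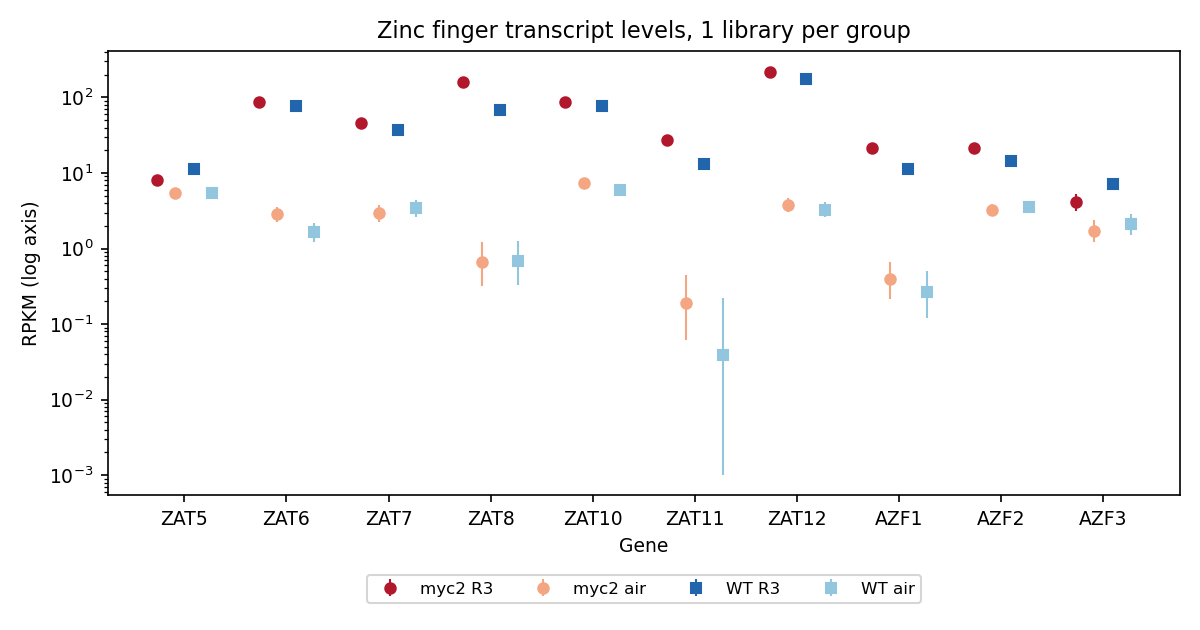
RPKM (log axis) of the 10 zinc finger genes in the 4 libraries, with 95% exact counting intervals; each point is 1 library. The R3 points of every gene lie above its air points, ZAT12 is highest at R3 with 217 RPKM in myc2 R3 and 176 in WT R3, and ZAT11 is lowest in air.

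ZAT12 (AT5G59820, chr5:24102814-24103794) was the highest of the 10 in both R3 libraries. It stood at 217 RPKM (211 to 224) in myc2 R3 and 3.78 (3.06 to 4.63) in myc2 air, and at 176 (170 to 181) in WT R3 and 3.27 (2.59 to 4.08) in WT air. These values rest on 3958 reads in myc2 R3 and 94 in myc2 air, and on 3975 in WT R3 and 78 in WT air. The ratio of R3 to air was 57.5 (46.9 to 71.3) in myc2 and 53.7 (42.9 to 68.1) in WT, intervals that overlap widely. Among all genes compared its log2 ratio had rank 99 in myc2 and 84 in WT.

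ZAT8 (AT3G46080, chr3:16922514-16923299) was among the lowest in air and among the highest at R3. It was at 162 RPKM (155 to 170) in myc2 R3 and 0.663 (0.318 to 1.22) in myc2 air, and at 68.4 (64.1 to 72.9) in WT R3 and 0.692 (0.332 to 1.27) in WT air. In each air library this is 10 reads, against 1792 reads in myc2 R3 and 938 in WT R3. The R3 to air ratio was 245 (133 to 511) in myc2 and 98.9 (53.5 to 207) in WT, and its width comes from the 10 reads in air. By log2 ratio it ranked 32 in myc2 and 86 in WT.

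Its neighbour ZAT7 (AT3G46090, chr3:16925881-16926883), known for salt tolerance when overexpressed, was at 46.6 RPKM in myc2 R3 and 2.95 in myc2 air. In WT it was at 36.9 at R3 and 3.40 in air. In air the ZAT7 level was therefore above that of ZAT8 and at R3 below it, in both genotypes. The R3 to air ratio of ZAT7 was 15.8 (12.1 to 21.1) in myc2 and 10.9 (8.39 to 14.3) in WT, smaller than that of ZAT8 with intervals that do not overlap. Only counting error stands behind that statement.

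ZAT11 (AT2G37430, chr2:15706285-15707224), which is induced by oxidative stress agents, was close to undetected in air. It was at 27.2 RPKM (24.9 to 29.6) in myc2 R3 and 0.189 (0.0614 to 0.441) in myc2 air, and at 13.1 (11.6 to 14.6) in WT R3 and 0.0394 (0.000999 to 0.220) in WT air. The air values are 5 reads in myc2 and 1 read in WT, against 527 reads in myc2 R3 and 314 in WT R3. The ratio was 144 (61.3 to 445) in myc2, and in WT 331, with an interval of 59.0 to 13111 that leaves its size unknown. AZF1 (AT5G67450, chr5:26918765-26920179) was likewise low in air, at 21.6 RPKM in myc2 R3 and 0.397 in myc2 air and at 11.2 in WT R3 and 0.266 in WT air. Its ratio was 54.4 (32.2 to 100.2) in myc2 and 42.0 (21.9 to 92.7) in WT.

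ZAT6 (AT5G04340, chr5:1216058-1217362), known from phosphate homeostasis and cadmium tolerance, and ZAT10 (AT1G27730, chr1:9648021-9649323) had nearly equal levels at R3. ZAT6 was at 86.4 RPKM in myc2 R3 and 2.83 in myc2 air, and at 76.6 in WT R3 and 1.65 in WT air. ZAT10 was at 87.4 RPKM in myc2 R3 and 7.46 in myc2 air, and at 77.8 in WT R3 and 5.94 in WT air. At R3 their counting intervals overlap in each genotype. In air ZAT10 had the highest value of the 10 genes, though its interval overlapped that of ZAT5 in WT air. ZAT6 was in the lower part of the order in air. The ratio of R3 to air was accordingly larger for ZAT6, at 30.6 (24.6 to 38.5) in myc2 and 46.5 (34.8 to 63.4) in WT, than for ZAT10, at 11.7 (10.2 to 13.6) in myc2 and 13.1 (11.1 to 15.4) in WT.

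AZF2 (AT3G19580, chr3:6802903-6804296) had smaller ratios, 6.57 (5.36 to 8.10) in myc2 and 3.99 (3.26 to 4.91) in WT. It was at 21.3 RPKM in myc2 R3 and 3.25 in myc2 air, and at 14.3 in WT R3 and 3.59 in WT air. AZF3 (AT5G43170, chr5:17330945-17331646) was the lowest of the 10 at R3, with 4.09 RPKM in myc2 R3 and 1.73 in myc2 air, and 7.20 in WT R3 and 2.097 in WT air. Its plain ratio was 2.36 (1.55 to 3.64) in myc2 and 3.43 (2.42 to 4.95) in WT, and its log2 ratio with the pseudocount was 0.90 in myc2 and 1.40 in WT. In myc2 it passed 2-fold with a pseudocount of 0.1 (1.19) and with an equal sum (1.06), and in WT it fell short with median-ratio scaling (0.94) and with a pseudocount of 5 (0.78). AT5G43160, on the other strand, shares 408 bases of gene span with AZF3, so the AZF3 value is uncertain. AT5G43160 was at 0.712 RPKM in myc2 R3, 1.47 in myc2 air, 0.990 in WT R3 and 1.19 in WT air.

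ZAT5 (AT2G28200, chr2:12023940-12025370) differed least between R3 and air. Its level was 8.21 RPKM in myc2 R3 and 5.47 in myc2 air, and 11.4 in WT R3 and 5.41 in WT air. The plain ratio was 1.5 (1.23 to 1.83) in myc2 and 2.11 (1.77 to 2.54) in WT. With the pseudocount the log2 ratio was 0.51 in myc2 and 0.96 in WT, short of 2-fold in both on that scale, and over 7 alternative settings it ran from 0.23 to 0.60 in myc2 and from 0.42 to 1.23 in WT. In WT it passed 2-fold under a pseudocount of 0.1 and under rescaling to an equal sum.

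**Figure D2:**
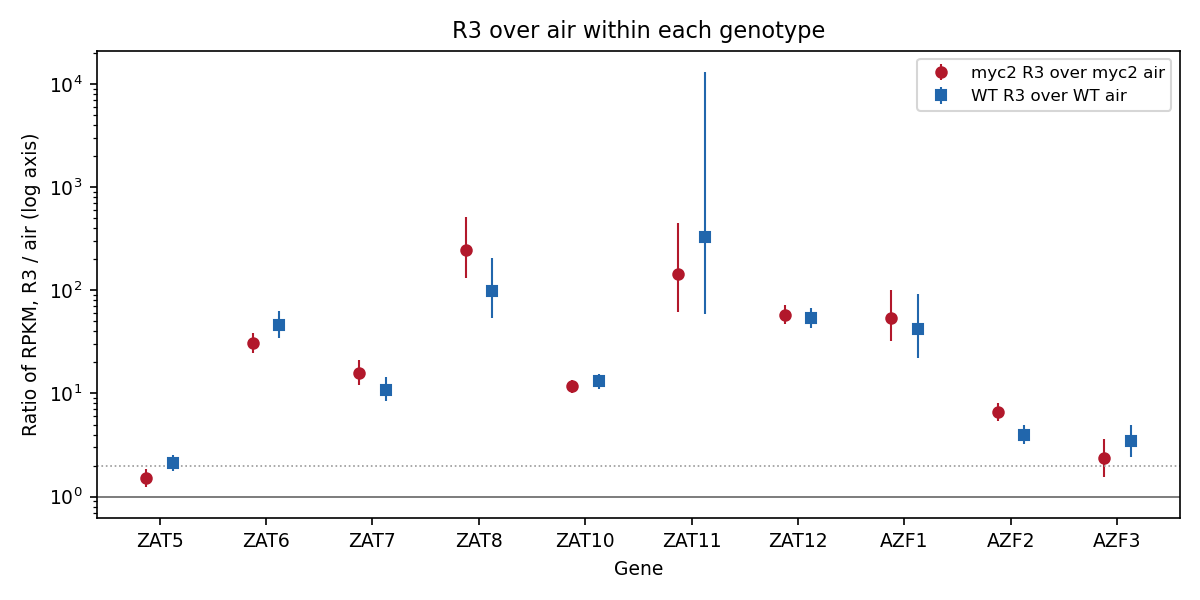
Ratio of RPKM at R3 to air (log axis) for each gene in myc2 and WT, with 95% exact counting intervals; the solid line marks a ratio of 1 and the dotted line a ratio of 2. ZAT8 and ZAT11 are highest, and ZAT5 and AZF3 are lowest in both genotypes.

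The make-up of the group's transcripts differed between conditions. ZAT10 and ZAT5 together led in air, with 26.0% and 19.1% of the summed RPKM in myc2 air and 22.5% and 20.5% in WT air. At R3, ZAT12 led with 31.9% in myc2 and 35.7% in WT, while ZAT5 took 1.20% in myc2 and 2.32% in WT. ZAT8 took 23.8% in myc2 R3 and 2.31% in myc2 air, and 13.9% in WT R3 and 2.62% in WT air. ZAT8 thus stood in the second place of the order in myc2 R3, and in the fourth in WT R3, below ZAT10 and ZAT6. In myc2 air, the counting intervals of neighbours overlapped from ZAT12 downward. In WT air they overlapped between ZAT10 and ZAT5 and again from AZF2 downward. The places of those neighbours are not resolved.

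**Figure D3:**
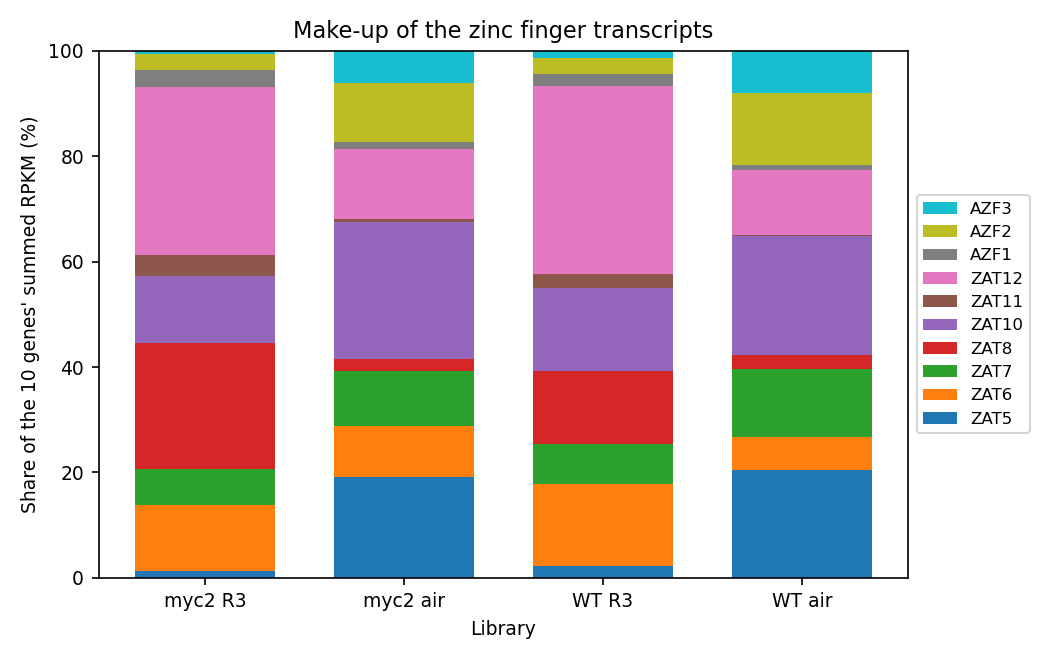
Share of the summed RPKM of the 10 genes taken by each gene (%), 1 bar per library. In both genotypes ZAT6, ZAT8, ZAT11, ZAT12 and AZF1 take a larger share at R3 than in air. ZAT5, ZAT7, ZAT10, AZF2 and AZF3 take a smaller share.

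Between the genotypes in air, the levels of the genes past the filter differed little. The 7 genes past the filter had a median log2 ratio of myc2 to WT of 0.01, against 0.22 over all genes, and turned to -0.24 with median-ratio scaling. None of the 7 was 2-fold apart, where 2.47% of 16616 genes were higher in myc2 and 0.343% lower, or 1.27% and 0.749% with median-ratio scaling. Among the genes past the filter, ZAT6 had the largest ratio, 1.71 (1.19 to 2.50), with 84 reads in myc2 air and 47 in WT air. ZAT10 followed at 1.25 (1.02 to 1.55). Left out by the filter were ZAT11, at 4.79 (0.536 to 227), AZF1, at 1.49 (0.601 to 3.91), and ZAT8, at 0.959 (0.358 to 2.57). Those ratios rest on few reads. For ZAT5, ZAT7, ZAT8, ZAT11, ZAT12, AZF1, AZF2 and AZF3 the counting interval of the ratio in air included 1, which does not show that the levels are equal.

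At R3 all 10 genes passed the filter, including ZAT8, ZAT11 and AZF1, which it left out in air. The genotype differences in air and at R3 thus cover unlike sets of genes. ZAT8 was at 162 RPKM in myc2 R3 and 68.4 in WT R3, a ratio of 2.37 (2.19 to 2.57). ZAT11 was at 27.2 in myc2 R3 and 13.1 in WT R3, a ratio of 2.09 (1.81 to 2.41). These 2 of 10 genes were at least 2-fold higher in myc2 on the scale with a pseudocount, where 1.92% of 17491 genes were higher and 1.6% lower. ZAT8 was past 2-fold under all 7 alternative settings, with log2 ratios of 1.10 to 1.25, whereas ZAT11, at 1.006, was past it under 3 of 7 and had a lowest value of 0.84. AZF1 followed at a ratio of 1.93 (1.69 to 2.21) and AZF2 at 1.49 (1.31 to 1.69). ZAT7 at 1.26, ZAT12 at 1.24, ZAT6 at 1.13 and ZAT10 at 1.12 were nearer to 1. AZF3, at 0.568 (0.416 to 0.769), and ZAT5, at 0.718 (0.603 to 0.852), were lower in myc2 R3 than in WT R3, neither by 2-fold. Whether these differences exceed the variation between plants or libraries was not tested.

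**Figure D4:**
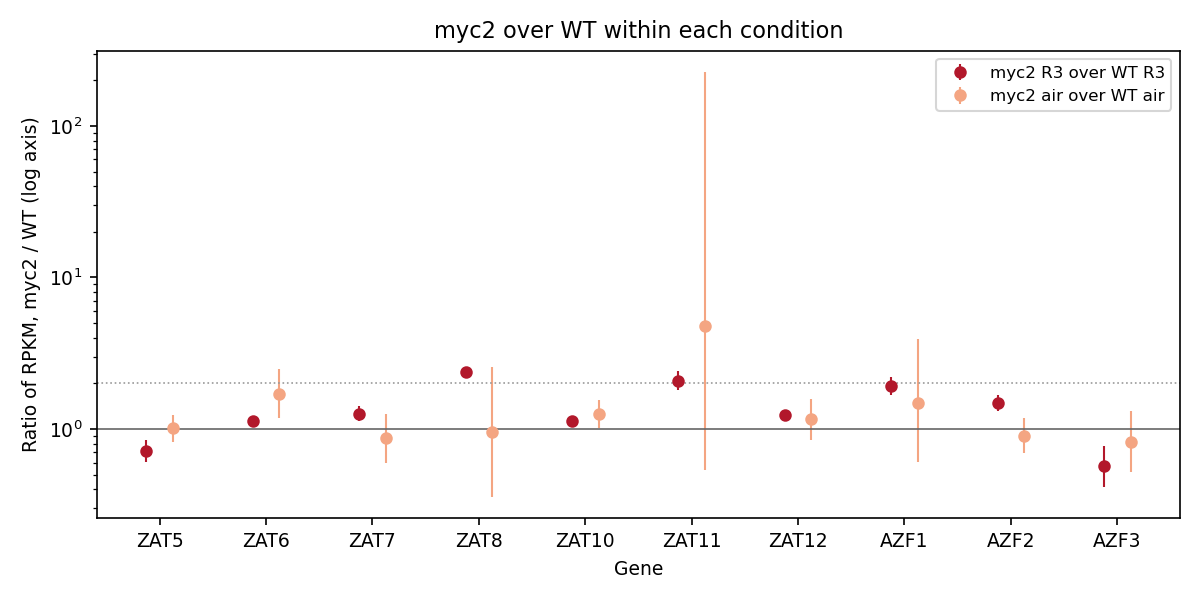
Ratio of RPKM in myc2 to WT (log axis) for each gene at R3 and in air, with 95% exact counting intervals; the solid line marks a ratio of 1 and the dotted line a ratio of 2. At R3, ZAT8 (2.37) and ZAT11 (2.09) lie above 2 and ZAT5 (0.718) and AZF3 (0.568) below 1, and the air intervals of genes with few reads are wide.

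The WT response (log2 of R3 over air) was subtracted from the myc2 response for each gene. This difference was at least 1 log2 unit for ZAT8 alone among the 10 genes, at 1.26. Of 17540 genes, 1.51% were that much higher in myc2 and 5.2% that much lower, or 2.84% higher and 2.998% lower with median-ratio scaling. The ZAT8 value rests on 10 reads in each air library. The counting intervals of its R3 to air ratio overlap, at 133 to 511 in myc2 and 53.5 to 207 in WT. The other genes lay between -0.51 (AZF3) and 0.81 (ZAT11), with 0.75 for AZF1, 0.65 for AZF2 and 0.48 for ZAT7. The value of ZAT11 was 0.0026 with a pseudocount of 0.1, and its WT air level rests on 1 read. ZAT12 at 0.14 and ZAT10 at -0.12 were close to 0 and each had the other sign under 1 alternative setting. Over all genes the median was -0.16, and 0.07 with median-ratio scaling.

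Upstream windows are shown for ZAT8 and ZAT7, the similar neighbours with unlike ratios, for ZAT12 and ZAT11, which had high ratios, and for ZAT5, which had the lowest in WT. Each is the 300 bases before the annotated start in RefSeq's TAIR10.1, written on the strand of the gene. Capitals mark matches, on either strand, to the W-box core TTGAC bound by WRKY factors, the heat shock element GAANNTTC, the G-box CACGTG that MYC2 binds, and the abscisic acid element core ACGTG, which a G-box contains.
ZAT8, minus strand of chr3:16923300-16923599: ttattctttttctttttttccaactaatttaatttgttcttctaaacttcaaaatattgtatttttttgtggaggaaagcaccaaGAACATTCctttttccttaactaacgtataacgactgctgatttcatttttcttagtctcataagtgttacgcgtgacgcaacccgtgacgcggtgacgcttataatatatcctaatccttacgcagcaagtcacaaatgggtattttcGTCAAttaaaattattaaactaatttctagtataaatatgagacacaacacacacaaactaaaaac
ZAT7, minus strand of chr3:16926884-16927183: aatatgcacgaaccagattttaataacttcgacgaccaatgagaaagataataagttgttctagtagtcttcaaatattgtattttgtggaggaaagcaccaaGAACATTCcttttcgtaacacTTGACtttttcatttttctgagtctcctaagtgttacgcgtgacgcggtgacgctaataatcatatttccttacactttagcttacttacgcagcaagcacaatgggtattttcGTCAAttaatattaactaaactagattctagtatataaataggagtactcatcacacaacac
ZAT12, plus strand of chr5:24102514-24102813: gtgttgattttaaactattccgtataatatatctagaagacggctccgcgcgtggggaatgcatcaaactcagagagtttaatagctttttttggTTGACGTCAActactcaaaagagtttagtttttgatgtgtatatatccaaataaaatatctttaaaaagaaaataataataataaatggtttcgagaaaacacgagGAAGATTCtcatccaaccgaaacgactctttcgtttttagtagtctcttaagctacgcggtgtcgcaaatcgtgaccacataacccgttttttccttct
ZAT11, plus strand of chr2:15705985-15706284: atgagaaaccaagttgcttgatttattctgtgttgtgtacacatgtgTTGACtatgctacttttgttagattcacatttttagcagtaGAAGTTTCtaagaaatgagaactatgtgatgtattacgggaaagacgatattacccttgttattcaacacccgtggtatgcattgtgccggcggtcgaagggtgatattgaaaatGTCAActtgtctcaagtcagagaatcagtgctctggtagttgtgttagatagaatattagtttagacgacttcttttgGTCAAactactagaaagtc
ZAT5, plus strand of chr2:12023640-12023939: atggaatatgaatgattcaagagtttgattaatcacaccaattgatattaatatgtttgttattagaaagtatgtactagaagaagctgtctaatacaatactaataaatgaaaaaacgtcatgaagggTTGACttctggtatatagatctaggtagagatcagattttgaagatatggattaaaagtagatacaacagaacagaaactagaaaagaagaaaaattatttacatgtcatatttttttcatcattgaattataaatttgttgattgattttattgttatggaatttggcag
The windows of ZAT7 and ZAT8 were identical at 228 of 264 aligned bases (86.4%), and both hold a heat shock element with the same letters. ZAT7 holds 2 W-box cores and ZAT8 holds 1. Of the 10 windows, 5 hold the heat shock element (ZAT6, ZAT7, ZAT8, ZAT11 and ZAT12), as do 11.5% of 27443 windows of protein-coding genes. A W-box core was in 8 of 10 and in 50.4% of all windows, and the abscisic acid core in 2 of 10 (ZAT10 and AZF3) and in 25.6%. The G-box letters were in none of the 10 and in 7.09% of all windows. These are matches of letters in a short window, and no binding was measured.

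**Figure D5:**
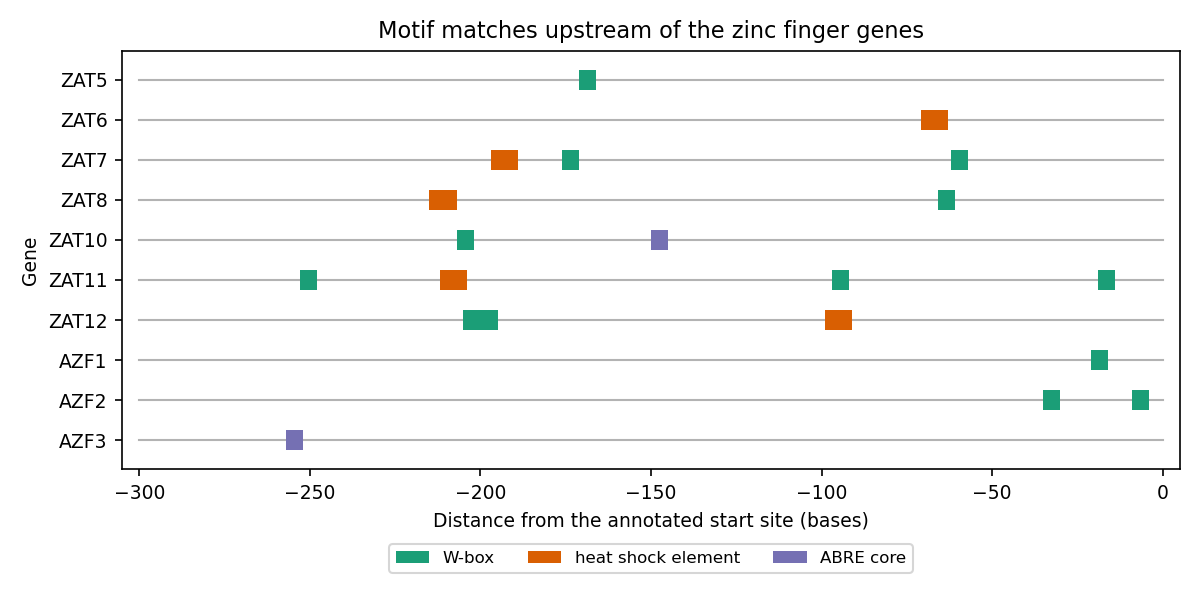
Position of motif matches in the 300 bases before the annotated start of each gene (bases from the start site), coloured by motif. Heat shock elements lie upstream of ZAT6, ZAT7, ZAT8, ZAT11 and ZAT12, and none of the 10 windows holds a G-box.

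Most kinase, oxidase and factor genes that are studied together with these zinc fingers were also higher at R3. Of 11 such genes, 9 in myc2 and 8 in WT were at least 2-fold higher and none lower, where 23.5% and 31.3% of all genes were higher. With median-ratio scaling these were 7 and 6, against 17.1% and 17.3% of all genes. The list medians were 1.75 in myc2 and 1.71 in WT, against 0.30 and 0.57 over all genes. The oxidase gene RBOHF was short of 2-fold in both, at a log2 ratio of 0.94 in myc2 and 0.59 in WT. So was MPK3, which another gene overlaps, at 0.94 in myc2 and 0.93 in WT. HSFA8 was short of it in WT alone, at 0.77. RBOHF, MPK3 and HSFA8 were named after their values were seen. The gene lists here and below were chosen with earlier results of these data known, so their counts are descriptions. OXI1, a kinase gene of hydrogen peroxide signalling, was at 22.3 RPKM in myc2 R3 and 0.162 in myc2 air, and at 18.1 in WT R3 and 0.401 in WT air. Being below 1 RPKM in air, OXI1 passed the filter through R3 alone. WRKY33, a defence factor gene that other genes overlap on the opposite strand, was at 88.5 in myc2 R3 and 5.87 in myc2 air, and at 58.1 in WT R3 and 4.18 in WT air. WRKY25, which acts in heat and oxidative stress, had log2 ratios of 2.82 in myc2 and 2.86 in WT, and WRKY70, a salicylic acid factor, 2.71 in myc2 and 2.70 in WT.

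Genes of the EAR corepressors, through which repressors of this class act, differed less. Of 8 genes, none in myc2 and 6 in WT were at least 2-fold higher at R3, against 23.5% and 31.3% of all genes. The list medians were 0.65 in myc2 and 1.28 in WT, against 0.30 and 0.57 over all genes. With median-ratio scaling the counts were 0 and 1 of 8, near or below the 17.1% and 17.3% of all genes, and the medians 0.34 and 0.72, against 0.03 and 0.04. The TOPLESS-related genes TPR3, TPR2, TPR4 and TPR1 had log2 ratios of 0.92, 0.93, 0.89 and 0.35 in myc2 and of 1.51, 1.41, 1.36 and 1.296 in WT. Genes on the opposite strand overlap TPR3 and TPR4. The difference between genotypes was not tested.

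Of 11 genes placed downstream of these factors in the field, 9 passed the filter in each genotype. At least 2-fold higher at R3 were 4 in myc2 and 4 in WT, with 0 lower in myc2 and 1 in WT, where 23.5% of all genes were higher and 11.5% lower in myc2 and 31.3% higher and 10.1% lower in WT. The list medians were 0.45 in myc2 and 0.71 in WT, against 0.30 and 0.57 over all genes. With median-ratio scaling there were 3 higher and 2 lower in myc2, and 3 higher and 1 lower in WT. Of all genes, 17.1% were then higher and 15.9% lower in myc2, and 17.3% higher and 17.1% lower in WT. APX1, the ascorbate peroxidase gene linked to ZAT12, was at 1091 RPKM in myc2 R3 and 212 in myc2 air, and at 1076 in WT R3 and 203 in WT air. The dehydration gene RD29A was at 320 in myc2 R3 and 24.3 in myc2 air, and at 274 in WT R3 and 14.4 in WT air. PCS1, phytochelatin synthase, had log2 ratios of 1.48 in myc2 and 1.77 in WT. FSD1, an iron superoxide dismutase gene, was at 65.1 in myc2 R3 and 108 in myc2 air, and at 38.3 in WT R3 and 121 in WT air.

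Of 7 other C2H2 zinc finger genes, whose fingers were not counted here, 2 passed the filter at R3 against air in each genotype. AT3G53600 was at 34.0 RPKM in myc2 R3 and listed at 0 in myc2 air, and at 44.1 in WT R3 and 0.130 in WT air. AT3G60580 was at 1.22 in myc2 R3 and 0.890 in myc2 air, and at 1.08 in WT R3 and 0.929 in WT air. Both AT3G53600 and AT3G60580 were below 1 RPKM in air and passed the filter through R3 alone. The sperm cell genes DAZ1 and DAZ2 were below 0.1 RPKM in every library.

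The genes with the pattern most like that of ZAT12 over the 4 libraries, by the distance between centred log2(RPKM + 1) values among 12053 genes averaging 5 RPKM or more, were MLO12, AT2G27660 and WR3, at distances of 0.14, 0.16 and 0.21. MLO12, which another gene overlaps, was at 58.3 RPKM in myc2 R3 and 0.134 in myc2 air, and at 45.4 in WT R3 and 0.112 in WT air. For ZAT10 the nearest were J2, AT5G25930 and WRKY17, at 0.04, 0.06 and 0.07. WRKY17 was at 49.8 in myc2 R3 and 3.82 in myc2 air, and at 41.6 in WT R3 and 2.90 in WT air. Within the zinc finger group, ZAT6 was nearest to ZAT12 (0.80, place 89) and ZAT7 nearest to ZAT10 (0.34, place 86). The pseudocount of 1 weighs heavily on the distances of genes near 0 in air, such as MLO12, and other pseudocounts were not run for them. Likeness over 4 libraries is a description and involves no replicate.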

How the data were processed

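RNA sequencing of Arabidopsis leaves gave 1 table per library, with 1 value per locus. The deposited values of 3 libraries are RPKM, per the names of the tables. The values of WT R3 are headed FPKM, per the file headers, in a table that is also named RPKM, and all were treated as 1 unit. The submitters' processing notes name TopHat, Cufflinks and the build TAIR10. The settings, use of strand and handling of multiply matching reads were not given in the sources used here.

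The value of 1 read, read from the commonest low value of RPKM times RefSeq exon length (191 to 241 loci per library), gave depths of 22.3 to 30.5 in units of 1000000 reads. For each of the 10 genes and MYC2, exactly 1 gene length no longer than the RefSeq exons made all 4 values whole reads within 0.001. For ZAT8 it was 495 bases, its coding length. From these reads, 95% exact Poisson intervals of levels and exact conditional binomial intervals of plain ratios were computed (scipy 1.17.1, Python 3.11.15). A count test across genes was not run, because each group is 1 library and the single residual of an additive fit is the difference of responses.

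Pairwise comparisons used log2((RPKM + 1)/(RPKM + 1)) for genes averaging 1 RPKM or more, and a difference of at least 2-fold was counted. Genes named were the 10 members, MYC2, the up to 4 largest WT ratios of each list and 1 in the other direction, and the 3 nearest patterns of ZAT12 and ZAT10. AT3G60580, DAZ1, DAZ2, RBOHF, MPK3, HSFA8 and the marker genes were named after their values were seen. The members and lists were chosen with earlier results of these data known. Sequences and motifs are from RefSeq's TAIR10.1, whose chromosomes carry its own annotation. The deposited tables hold no coordinates. The read recovery and the 2-fold count were tested on simulated data. Alternatives were 2 pseudocounts (0.1 and 5), 2 filters (none and 5 RPKM) and 3 rescalings.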

Additional observations from a re-analysis of the deposited data

Results flagged for a closer look

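For 4 of the 10 genes, myc2 and WT differed in opposite directions at R3 and in air, each on 1 library a group, so the difference was not tested. No minimum size was asked of either ratio. The share of all genes with opposite signs was not computed, so the count does not set these genes apart. ZAT8 had a log2 ratio of myc2 to WT of 1.23 at R3 and -0.02 in air, a difference of 1.26. AZF2 had 0.54 at R3 and -0.11 in air, a difference of 0.65. ZAT7 had 0.33 at R3 and -0.16 in air, a difference of 0.48. ZAT5 had -0.43 at R3 and 0.01 in air, a difference of -0.45. The ZAT5 air value turned to -0.24 with median-ratio scaling and to -0.071 with the sum without the 50 highest genes, the sign it had at R3. With median-ratio scaling ZAT12 had opposite signs instead, at 0.29 at R3 and -0.07 in air. In air the 95% counting interval of the plain ratio included 1 for all 5 genes.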

How the results depend on the processing

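The 7 alternatives kept the number of genes at least 2-fold higher at R3 within 8 to 9 in myc2 and 8 to 10 in WT, of 10 genes or, with the filter at 5 RPKM that AZF3 did not pass, of 9, and none of these genes was 2-fold lower in any of the 4 pairwise comparisons under any of them. Over all genes, the share higher at R3 ran from 13.8% to 27.2% in myc2 and from 17.3% to 41.8% in WT. The share lower at R3 ran from 6.34% to 15.9% in myc2 and from 5.72% to 17.1% in WT. The number at least 2-fold higher in myc2 R3 than in WT R3, 2 as deposited, was 1 with a pseudocount of 5 and 1 under each of the 3 rescalings, because ZAT11 lies at the limit. The median log2 ratio of R3 to air was 4.41 in myc2 and 4.32 in WT with a pseudocount of 0.1, and 2.67 in myc2 and 2.08 in WT with a pseudocount of 5, since the pseudocount sets the ratios of genes near 0 in air. The median ratio of myc2 air to WT air turned to -0.24 with median-ratio scaling and to -0.071 with the sum without the 50 highest genes. With 1 library per group no library could be left out. The labels give no replicate numbers to pair by, and a fit of condition paired within genotype, with 1 residual degree of freedom, was not run. Depth limits ZAT11 (5 reads in myc2 air and 1 in WT air), ZAT8 (10 reads in each) and AZF1 (14 in myc2 air and 9 in WT air).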
